A study of Mus musculus with 9 samples.

Results

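Rab GTPases are small GTP-binding proteins that mark the membranes of a cell, and their genes were followed here across 3 subsets of in vitro mouse monocytes. The members were the protein-coding genes whose symbol is Rab, a number and at most 2 further letters or digits, which gave 59 of the 46517 genes in the deposited table. Rab3ip, an exchange factor, and Rab5if, a membrane protein that interacts with Rab5, have symbols of the same form but are no GTPases and were set aside. The measurement was RNA sequencing of 9 libraries, 3 for each subset, numbered 0, 1 and 2 by their labels. The labels name conventional (cMo), intermediate (intMo) and patrolling (pMo) monocytes. All 9 libraries were primary cells of wild-type C57BL/6 background, with no treatment named, and their age and sex are unstated in the labels. The title of the series places the pMo in bone marrow cultures on OP9-DLL1, stromal feeder cells made to express a Notch ligand, and its description lists the cMo name where the labels have pMo. The labels do not say whether libraries of a subset came from separate animals or cultures, so each p-value below measures the spread between these libraries, which may be technical.

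A Rab protein cycles between a GTP-bound form, held on the membrane of one compartment by its lipid tail, and a GDP-bound form that is carried in the cytosol. Exchange factors load GTP, GTPase-activating proteins end the signal, and effectors bound to the active form move, tether or fuse vesicles. In monocytes and macrophages Rabs are known for phagosome maturation, for delivery of receptors and enzymes to lysosomes and the cell surface, and for release of granules.

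The promoter stretches of 4 genes whose values the results turn on are printed first, since Rab20, Rab10 and Rab8a were higher and Rab3d was lower in pMo than in cMo. They are RefSeq sequences of build GRCm38.p6, 5′ to 3′ on the strand of the gene. Each was taken from the 250 bases before the RefSeq start and ends where the GENCODE gene begins, which removed 70 bases for Rab20, 9 for Rab3d and 0 for the other two. Capitals mark GGGGCGGGG, the core bound by Sp1, or the motif CCAAT, bound by NF-Y, on either strand. Rab20 is shown at chr8:11478711-11478890 on the minus strand, Rab10 at chr12:3309970-3310219 on the minus strand, Rab8a at chr8:72160950-72161199 on the plus strand and Rab3d at chr9:21918193-21918433 on the minus strand.
Rab20: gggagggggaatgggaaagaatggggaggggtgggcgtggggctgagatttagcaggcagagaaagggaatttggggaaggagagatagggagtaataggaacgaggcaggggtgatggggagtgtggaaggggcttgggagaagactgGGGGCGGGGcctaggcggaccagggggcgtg
Rab10: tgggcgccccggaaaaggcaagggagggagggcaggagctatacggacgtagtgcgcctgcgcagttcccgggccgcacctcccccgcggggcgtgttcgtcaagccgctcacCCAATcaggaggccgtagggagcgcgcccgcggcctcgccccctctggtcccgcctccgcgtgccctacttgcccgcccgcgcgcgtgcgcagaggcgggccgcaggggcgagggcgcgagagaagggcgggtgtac
Rab8a: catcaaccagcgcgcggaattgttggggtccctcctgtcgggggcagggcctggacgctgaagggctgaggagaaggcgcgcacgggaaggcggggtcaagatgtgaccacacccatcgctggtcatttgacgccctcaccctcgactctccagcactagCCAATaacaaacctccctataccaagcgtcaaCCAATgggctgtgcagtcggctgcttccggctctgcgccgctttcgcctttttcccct
Rab3d: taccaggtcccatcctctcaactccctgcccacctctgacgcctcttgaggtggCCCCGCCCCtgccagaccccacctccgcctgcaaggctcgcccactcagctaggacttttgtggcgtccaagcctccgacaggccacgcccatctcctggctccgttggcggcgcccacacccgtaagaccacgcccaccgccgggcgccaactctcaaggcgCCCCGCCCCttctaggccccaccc

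A window of 250 bases before the start was found for 48 of the 59 genes. CCAAT, read on both strands, was in 24 of these 48 windows (50%), against 33.8% of all 32851 promoter windows in the RefSeq table. The Rab windows were counted by gene, and the others by window with no selection by gene type or expression. The 2 sets are therefore unlike in these respects. GGGGCGGGG was in 11 windows (22.9%, against 10.4% of all). The E-box CACGTG was in 5 windows (10.4%, against 6.02% of all), namely those of Rab20, Rab21, Rab23, Rab27a and Rab5a; in Rab20 it begins 46 bases before the RefSeq start, past the printed stretch. TGANTCA, the AP-1 form, was in 2 windows (4.17%, against 6.75%) and the Nr4a form AAAGGTCA in 0 windows (against 1.34%), which says only that these letters are not in those windows. These 5 motifs are the described part of 9 that were searched, chosen after the windows were looked at, and a match is a description of letters and no evidence of binding.

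Each library held between 18455008 and 29985563 estimated counts. All 11 monocyte markers on the list, among them Csf1r, were at 1 CPM (counts scaled to library size) or more in every library. Ly6c2 (Ly6C) was at 1038, 1130 and 1401 CPM in cMo, 24.5, 256 and 207 in intMo and 8.71, 75.5 and 75.3 in pMo. Fcgr4, a patrolling monocyte receptor, was at 12.9 to 21 CPM in cMo, 271 to 328 in intMo and 263 to 271 in pMo. It therefore did not set pMo apart from intMo. Spn, also on the list, was at 227 to 332 CPM in cMo, 57.2 to 129 in intMo and 504 to 619 in pMo. The libraries numbered 0 stood apart from libraries 1 and 2. The summed level of 12 granulocyte and progenitor genes was 12381, 2266 and 2548 CPM in cMo 0, 1 and 2, 463, 4054 and 3771 CPM in intMo, and 567, 2479 and 2545 CPM in pMo, so library 0 was the highest in cMo and the lowest in the other two subsets. The summed level of 13 stromal genes was 21.3 to 25.4 CPM in cMo, 724, 220 and 271 CPM in intMo, and 500, 316 and 263 CPM in pMo; 11 of 11 tested stromal genes passed the test as higher in intMo and in pMo than in cMo, Dll1 among them, while Dcn was at 0 in all 9 libraries.

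Of the 59 Rab genes, 49 passed the filter on low counts and were tested among 14059 genes in all. By edgeR's quasi-likelihood test with Benjamini-Hochberg adjustment over those 14059 genes (called at an adjusted p under 0.05), 12 of the 49 (24.5%) differed among the 3 subsets, against 33.0% of all genes tested. In intMo against cMo 9 were called (18.4%, against 24.4% of all genes), of which 7 were higher (14.3%, against 14.0%) and 2 lower (4.08%, against 10.4%). In pMo against cMo 13 were called (26.5%, against 33.1%), 9 higher (18.4%, against 17.2%) and 4 lower (8.16%, against 15.9%). Between pMo and intMo 1 was called (2.04%, against 4.99%), which was higher in pMo (2.04%, against 3.29%), and 0 were called lower (against 1.69%). In that last comparison 6 of the 49 (12.2%) had an unadjusted edgeR p under 0.05, against 18.6% of all genes. DESeq2 called 4 Rab genes there (6.78%, against 9.17% of all genes). By this fit the share of Rab genes called was below that of all genes in each of the 3 pairs. With the library number as a block it was above that of all genes in intMo against cMo (26.5% against 26%). So it was in pMo against intMo (8.16% against 5.95%), while in pMo against cMo it was below (30.6% against 35.3%). The block was fitted over all 9 libraries, but the check given with the processing paired the numbers of intMo and pMo only. That limit holds for each blocked value against cMo below. Without the block, the Rab share was above that of all genes in intMo against cMo when cMo 0 was left out (20% against 18.3%). In pMo against intMo it was above without pMo 0 (4% against 3.1%) or pMo 2 (2% against 1.78%). The share called higher in intMo or pMo against cMo, without the block, was close to that of all genes. These are descriptions, with no test of the difference.

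The Rab genes called in intMo against cMo were Rab20, Rab43, Rab19, Rab2b, Rab10, Rab30 and Rab27b among the higher and Rab3d and Rab36 among the lower. Those called in pMo against cMo, a comparison that uses the same cMo libraries, were Rab19, Rab20, Rab43, Rab10, Rab8a, Rab2b, Rab30, Rab27b and Rab33a among the higher and Rab36, Rab3d, Rab28 and Rab1b among the lower. Rab10 was the 1 gene called between pMo and intMo. Without the libraries numbered 0, 13 were called in intMo against cMo (26.5%, against 27.8% of all genes). In pMo against cMo 18 were called (36.7%, against 37.7%), and between pMo and intMo 7 (14.3%, against 17.1%).

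Over the 49 tested genes the median log2 fold change was -0.01 in intMo against cMo, -0.00 in pMo against intMo and 0.05 in pMo against cMo, beside -0.01, -0.02 and 0.03 over all genes. The median size of the change, whatever its direction, was 0.23, 0.13 and 0.36 on the log2 scale, beside 0.40, 0.25 and 0.47 over all genes. Among Rab genes that were not called, the 95% interval of the log2 fold change was compared with 1 unit either side of 0. It lay within that range for 29 of 40 in intMo against cMo (72.5%, against 61.1% of all genes not called). It did so for 36 of 48 in pMo against intMo (75%, against 59.5%) and 25 of 36 in pMo against cMo (69.4%, against 60.2%). For the Rab genes within that range a change larger than 2-fold lay outside the interval. For the others it did not. The plot of fold changes shows the called genes as coloured points, and the map of library values shows them line by line.

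**Figure D1:**
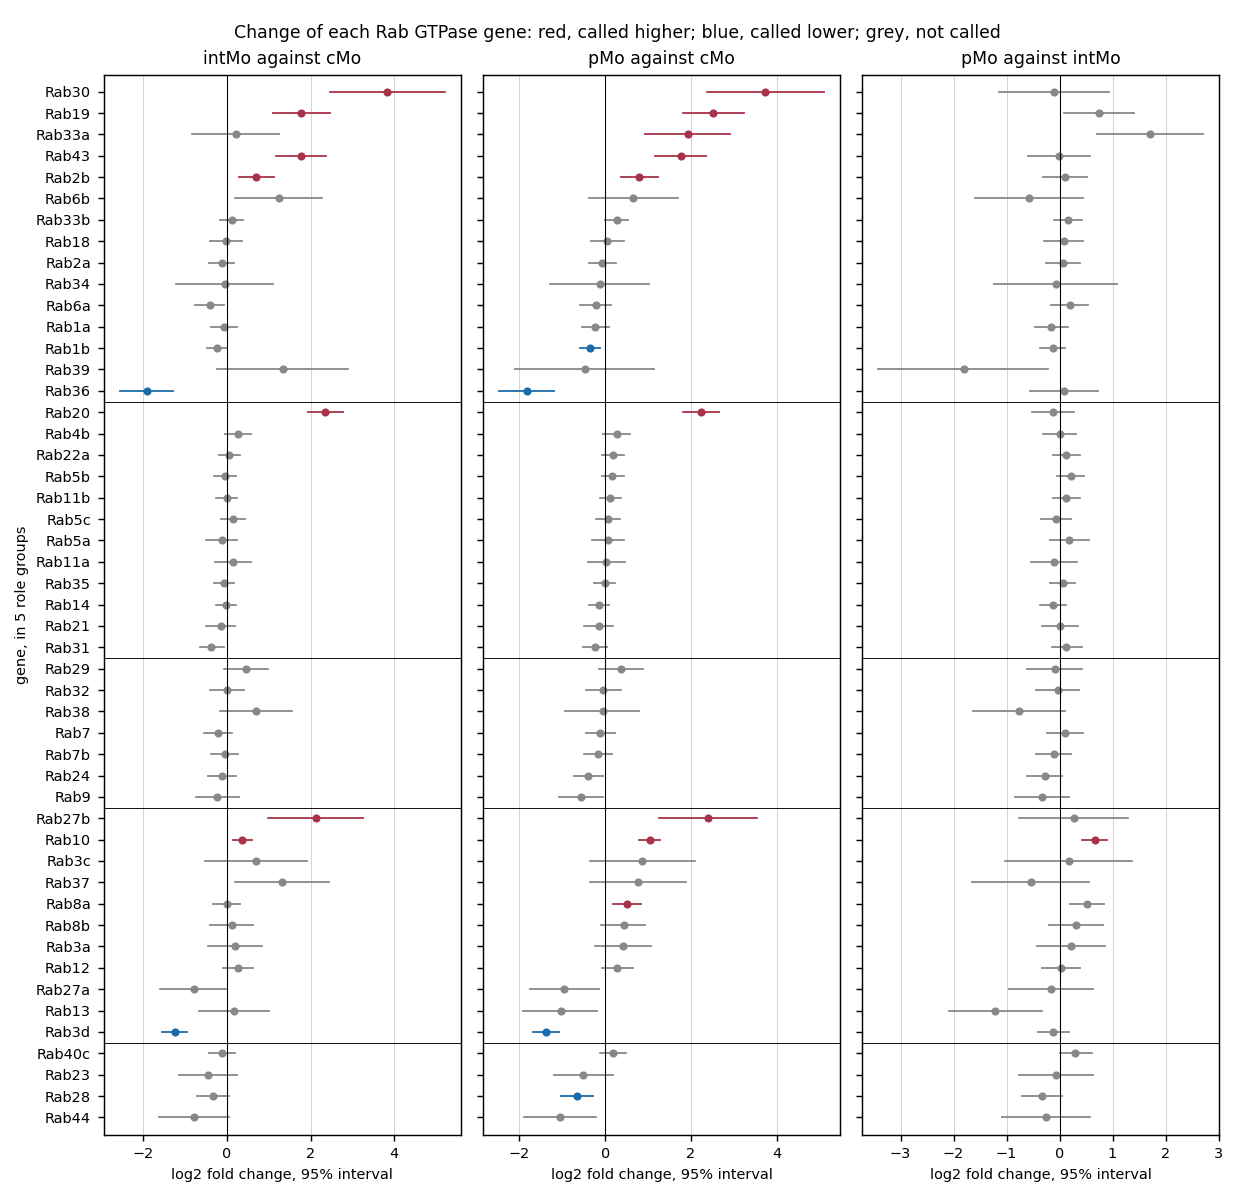
Log2 fold change (x axis) with its 95% interval (lines) of each of the 49 tested Rab genes (y axis), in intMo against cMo (left), pMo against cMo (middle) and pMo against intMo (right). Red points were called higher and blue points lower by edgeR; grey points were not called. Horizontal lines separate, from the top, ER and Golgi traffic, early and recycling endosomes, late endosomes and lysosomes, secretion and the cell surface, and other roles. Rab10 is the 1 coloured point in the right panel.

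**Figure D2:**
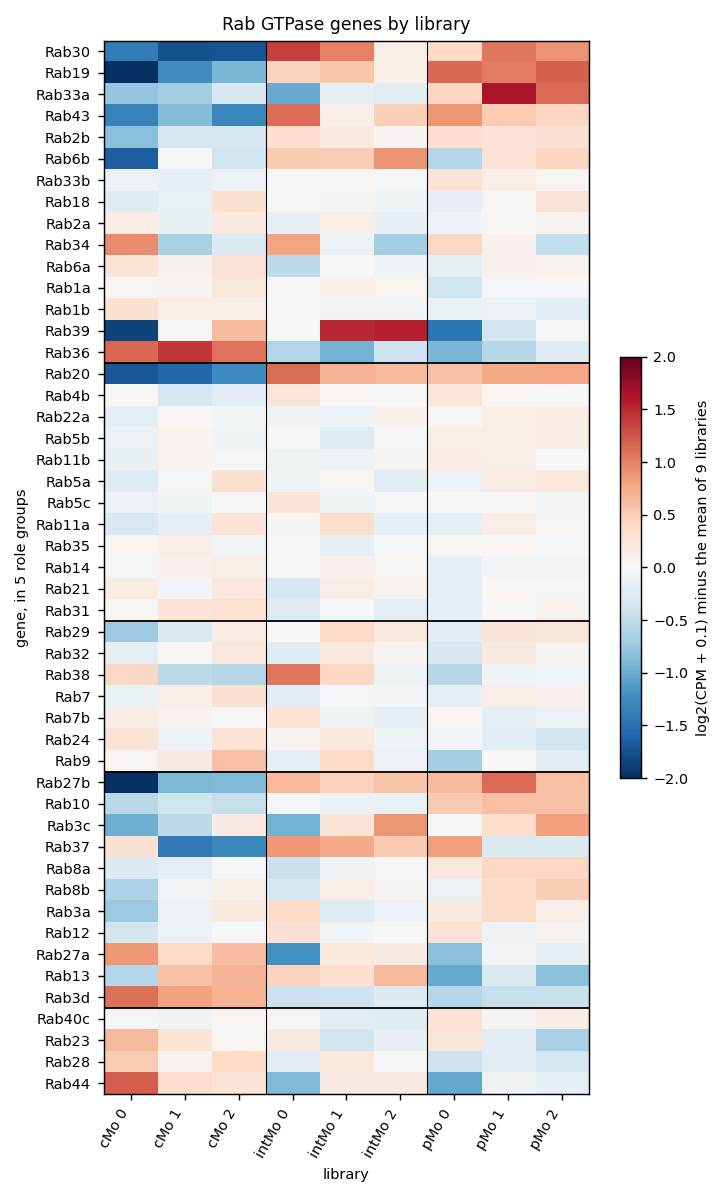
Each cell is log2(CPM + 0.1) of 1 Rab gene (rows, grouped by role as in the plot of fold changes) in 1 library (columns), minus the mean of the gene over the 9 libraries; red is above and blue below that mean, and the colours end at 2 either side of 0, which Rab19 and Rab27b in cMo 0 exceed. Rab20, Rab43 and Rab19 are blue in all 3 cMo libraries and red in pMo, Rab36 and Rab3d show the opposite colours, and Rab44 and Rab27a differ between library 0 and the others.

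Scaled by the summed exon length of each gene, Rab7 had the highest mean level over the 9 libraries (144 CPM per kb), followed by Rab5c (134), Rab1b (87.7), Rab32 (75.8), Rab1a (51.1), Rab24 (50.4), Rab2a (48.9) and Rab8b (43.3), all in CPM per kb. These 8 genes made up 51.1% of the summed level of the 59. The sum over all 59 was 1184 to 1300 CPM per kb in the cMo libraries, 1213 to 1255 in intMo and 1199 to 1323 in pMo, so the subsets overlapped. In bulk samples like these, fewer cells of a type and less RNA per cell cannot be told apart.

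**Figure D3:**
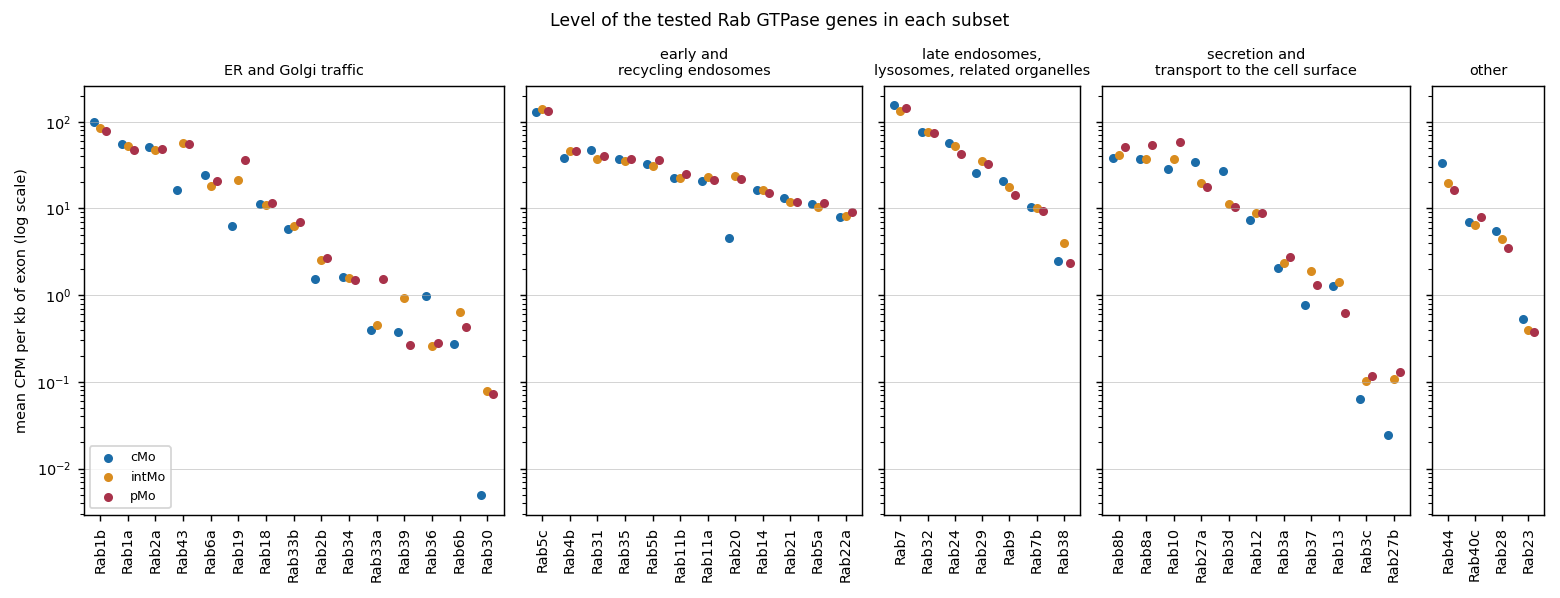
Mean CPM per kb of exon (y axis, log scale) of the 49 tested Rab genes (x axis), in panels by role; blue points are cMo, orange intMo and red pMo, each the mean of 3 libraries. Rab7, Rab5c and Rab1b lead their panels, with the 3 subsets close together, while Rab20, Rab43, Rab19 and Rab36 show cMo apart from the other two subsets.

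Of the genes that act between the ER and the Golgi or within the Golgi, 15 of 16 were tested. In intMo against cMo 4 were called higher (26.7%, against 14.0% of all genes) and 1 lower (6.67%, against 10.4%). In pMo against cMo 5 were higher (33.3%, against 17.2%) and 2 lower (13.3%, against 15.9%). In pMo against intMo 0 of 15 were called by edgeR with all libraries and no block, against 4.99% of all genes. There 3 of the 15 had an unadjusted edgeR p under 0.05, against 18.6% of all genes. DESeq2 called 1 of them, against 9.17% of all genes. Rab43 (chr6:87788853-87812164, minus strand, GRCm38), which acts in Golgi organisation and on phagosomes, was at 80.1, 111 and 82.7 CPM in cMo 0, 1 and 2, at 439, 217 and 280 CPM in intMo, and at 373, 287 and 268 CPM in pMo. Every intMo and pMo library was above every cMo library, and library 0 was the highest of both intMo and pMo. The log2 fold change was 1.77 (SE 0.27, edgeR adjusted p = 0.00197) in intMo against cMo and 1.76 (SE 0.27, edgeR adjusted p = 0.00139) in pMo against cMo, a rise of 3.42-fold and 3.39-fold. Of the stretches of 31 bases in its transcripts, 74.8% also occur in Gm45140, a gene model on the same strand, so the division of reads between them is uncertain. Gm45140 itself was at 18.9 to 29.3 CPM in cMo and at 29.6 to 49.5 CPM in intMo and pMo, and was also called higher in both (log2 0.89, SE 0.25, and log2 0.82, SE 0.25; edgeR adjusted p = 0.0311 and 0.0318). The sum of stromal genes was highest in the same 2 libraries, intMo 0 and pMo 0; its part in the Rab43 level was not tested. Without the libraries numbered 0 the Rab43 log2 fold changes were 1.36 and 1.52, both called.

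Rab19 (chr6:39381175-39390380, plus strand), a Golgi Rab of which little is known, was at 5, 10.8 and 13.5 CPM in cMo, 34.8, 37.6 and 28.1 CPM in intMo, and 57, 52.5 and 59.2 CPM in pMo. No library of one subset overlapped another. It rose by a log2 of 1.78 (SE 0.31, edgeR adjusted p = 0.00375) in intMo against cMo and of 2.52 (SE 0.31, edgeR adjusted p = 0.000532) in pMo against cMo. Between pMo and intMo the log2 difference was 0.75 (SE 0.30, edgeR adjusted p = 0.213) with all libraries, and 0.76 (edgeR adjusted p = 0.0185) without those numbered 0.

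Rab2b (chr14:52261759-52279545, minus strand), the less abundant partner of Rab2a in Golgi traffic, was at 5.04, 7.07 and 7.16 CPM in cMo, 11.5, 10.4 and 9.45 CPM in intMo and 11.4, 11.1 and 11.2 CPM in pMo. The cMo libraries were below all others. It rose by a log2 of 0.70 (SE 0.19, edgeR adjusted p = 0.0258) in intMo and of 0.80 (SE 0.19, edgeR adjusted p = 0.0105) in pMo, and the abundant Rab2a did not pass the test (log2 -0.13 and -0.07; edgeR adjusted p = 0.53 and 0.737). The Rab2b call in intMo was lost without intMo 0 or intMo 1 (edgeR adjusted p = 0.0726 and 0.0586) and in the fit to only the 2 subsets compared (0.0806). Whether the 2 genes differ in their change was not tested. An antisense gene model, Gm43766, covers much of Rab2b and was at 0 in all 9 libraries.

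Rab36 (chr10:75037058-75054748, plus strand), which links the Golgi and late endosomes, was a rare transcript and fell. Its level was 5.79, 7 and 5.54 CPM in cMo, 1.66, 1.27 and 1.89 CPM in intMo and 1.31, 1.68 and 2.14 CPM in pMo. All 3 cMo libraries were above all others. The log2 fold change was -1.92 (SE 0.28, edgeR adjusted p = 0.00177) in intMo and -1.83 (SE 0.28, edgeR adjusted p = 0.00148) in pMo, that is 0.264 and 0.281 times the cMo level.

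Rab1b (chr19:5099205-5107072, minus strand), required for transport from the ER to the Golgi, was the most abundant gene of this group per kb of exon. In plain CPM the mean over the 9 libraries was higher for Rab43 (238, against 199 for Rab1b). Its level was 246, 217 and 218 CPM in cMo, 199, 191 and 191 CPM in intMo and 180, 182 and 171 CPM in pMo. The subsets did not overlap and lay in that order, although the steps were small. Its log2 fold change was -0.35 (SE 0.11, edgeR adjusted p = 0.0306) in pMo against cMo, a call that was lost in 7 of 17 other settings (adjusted p up to 0.12), among them those without cMo 0, without intMo 2 and without any 1 of the 3 pMo libraries. Its paralog Rab1a was not called (log2 -0.23, SE 0.14, edgeR adjusted p = 0.234).

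The rest of this group comprised 2 called genes of very low level and 8 that edgeR, with all libraries and no block, called in no pair. Rab30, a Golgi Rab, summed to 4 estimated counts over the 3 cMo libraries, 51 over intMo and 53 over pMo, and was called higher in both (log2 3.84, SE 0.61, and log2 3.73, SE 0.61; edgeR adjusted p = 0.00242 and 0.00188). Its highest library, intMo 0, was at 1.07 CPM. Rab33a, on the X chromosome and related to the autophagy-linked Rab33b, was at 0.396 to 0.576 CPM in cMo and 1.03, 2.52 and 1.75 CPM in pMo, a log2 of 1.92 (SE 0.44, edgeR adjusted p = 0.0101, and 0.0513 without pMo 1). Both genes are named outside the rule for named genes, because their mean over the 9 libraries is below 1 CPM. Rab33b, at 20 to 26.9 CPM, was not called (log2 0.27 in pMo against cMo, SE 0.12, edgeR adjusted p = 0.113). Rab6a, which controls traffic back from the Golgi to the ER, was at 54.1 to 95.7 CPM (log2 -0.41 in intMo against cMo, SE 0.16, edgeR adjusted p = 0.089). Rab39 was low and uneven, at 0.252, 1.2 and 1.87 CPM in cMo, 1.18, 3.52 and 3.65 CPM in intMo and 0.37, 0.875 and 1.14 CPM in pMo, with library 0 the lowest each time. By the edgeR test with all libraries and no block it was not called in any pair. With the library number as a block it was called higher in intMo against cMo (log2 1.48, SE 0.34, edgeR adjusted p = 0.019). Without the libraries numbered 0 it was called higher there too (log2 1.23, edgeR adjusted p = 0.017). Both fits called it lower in pMo against intMo (log2 -1.80 and -1.84, edgeR adjusted p = 0.0268 and 0.00536). Rab18, Rab1a, Rab2a, Rab34 and Rab6b were not called by edgeR with all libraries and no block either. For Rab6b in intMo against cMo the block gave a log2 of 1.37 (edgeR adjusted p = 0.0316) and DESeq2 1.23 (adjusted p = 0.0374). Without the libraries numbered 0 its log2 was 0.95 (edgeR adjusted p = 0.0363).

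Of the 16 Rabs of early and recycling endosomes, 12 were tested. With all libraries and no block, edgeR called Rab20 alone (8.33%). It was higher in intMo and in pMo than in cMo, where 14.0% and 17.2% of all genes were called higher. Rab20 (chr8:11453518-11478710, minus strand), which is known from phagosome maturation in macrophages, was at 5.54, 6.15 and 7.56 CPM in cMo, 40, 29.6 and 28.9 CPM in intMo and 27.7, 31.1 and 31.5 CPM in pMo. The cMo libraries were far below the rest, and intMo and pMo overlapped. It rose by a log2 of 2.35 (SE 0.19, edgeR adjusted p = 9.05e-05), or 5.11-fold, in intMo, and by 2.23 (SE 0.18, edgeR adjusted p = 6.96e-05), or 4.69-fold, in pMo. Between pMo and intMo the log2 difference was -0.13, with a 95% interval from -0.52 to 0.27. The antisense model E230013L22Rik, which overlaps it, was at 0 in all libraries. Stromal genes were higher in the same 2 subsets, and their part in this rise was not tested. Without the libraries numbered 0, where the stromal sums are 220 to 316 CPM in intMo and pMo beside 22.9 and 21.3 CPM in cMo, the log2 fold changes were 2.10 and 2.20, both called.

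Rab5c (chr11:100715009-100738215, minus strand), a regulator of early endosome fusion, was at 271, 277 and 294 CPM in cMo, 355, 276 and 296 CPM in intMo and 298, 301 and 282 CPM in pMo. The subsets overlapped, with intMo 0 the highest. The log2 fold change was 0.14 (95% interval -0.14 to 0.42) in intMo and 0.06 (-0.22 to 0.34) in pMo against cMo, neither called (edgeR adjusted p = 0.457 and 0.721). Rab5a and Rab5b, which share its role, had log2 fold changes of 0.06 and 0.17 in pMo against cMo. Rab11a and Rab11b, of recycling endosomes, had 0.03 and 0.12. Rab14 was at 191 to 232 CPM and Rab35, which returns cargo from endosomes to the cell surface, at 91.7 to 111 CPM across all 9 libraries. Rab31, which acts between the Golgi and endosomes, was at 161, 191 and 192 CPM in cMo and 132, 153 and 137 CPM in intMo without overlap (log2 -0.37, SE 0.13), and missed the threshold (edgeR adjusted p = 0.0623). It was called by DESeq2 (log2 -0.38, adjusted p = 0.0332), with the library number as a block (log2 -0.37, edgeR adjusted p = 0.046) and without the libraries numbered 0 (log2 -0.40, edgeR adjusted p = 0.0297). Rab4b was at 66.9 to 100 CPM. Without the libraries numbered 0 it was called higher in pMo against cMo (log2 0.30, edgeR adjusted p = 0.0486). Its paralog Rab4a stayed below 1 CPM, at 31 estimated counts over all 9 libraries.

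Of the 7 tested genes of late endosomes, lysosomes and related organelles, edgeR with all libraries and no block called 0 in each of the 3 pairs. Of all genes it called 24.4% in intMo against cMo, 4.99% in pMo against intMo and 33.1% in pMo against cMo. DESeq2 also called 0 of the 7, against 26.1%, 9.17% and 31.3% of all genes. An unadjusted edgeR p under 0.05 was reached by 2 of the 7 (Rab24 and Rab9) in pMo against cMo, against 43.4% of all genes. It was reached by 0 in intMo against cMo and in pMo against intMo, against 37.6% and 18.6% of all genes. Without the libraries numbered 0, Rab38 was called higher in intMo against cMo (log2 0.75, edgeR adjusted p = 0.0466). Rab7 (chr6:87999106-88045270, minus strand), the Rab that drives fusion of late endosomes and phagosomes with lysosomes, was at 341, 409 and 463 CPM in cMo, 320, 362 and 360 CPM in intMo and 325, 405 and 394 CPM in pMo. Library 0 was the lowest in each subset, and the subsets overlapped. Against cMo its log2 fold change was -0.22 (95% interval -0.55 to 0.12) in intMo and -0.11 (-0.44 to 0.23) in pMo. Rab32, of lysosome-related organelles, was at 141 to 205 CPM with log2 fold changes of -0.01 and -0.04. Rab24, linked to autophagy, was at 95.1 to 123 CPM in cMo and 76.7 to 96.7 CPM in pMo (log2 -0.39, SE 0.15, edgeR adjusted p = 0.0706). Of its stretches of 31 bases, 54.4% lie antisense to Prelid1, which was at 254 to 458 CPM and was called lower in pMo (log2 -0.64, edgeR adjusted p = 0.00552). No source used here gives the strand setting of the counting, so the reads of these stretches cannot be assigned to 1 of the 2 genes here. Rab9, which returns receptors from late endosomes to the Golgi, had a log2 of -0.57 in pMo against cMo (SE 0.23, edgeR adjusted p = 0.0876), and with the library number as a block it was called (log2 -0.58, SE 0.18, edgeR adjusted p = 0.0419). Rab29, Rab7b and, with all libraries, Rab38 were not called.

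Of 13 genes of secretion and transport to the cell surface, 11 were tested, and the called ones went both ways. In pMo against cMo Rab10, Rab8a and Rab27b were higher and Rab3d was lower; in intMo against cMo Rab10 and Rab27b were higher and Rab3d lower. These are 36.4% and 27.3% of the 11, against 33.1% and 24.4% of all genes called. Rab10 (chr12:3247428-3309969, minus strand), which carries glucose transporters and Toll-like receptor 4 to the cell surface, was at 94, 105 and 101 CPM in cMo, 135, 127 and 126 CPM in intMo and 199, 210 and 209 CPM in pMo. The 3 subsets formed separate steps. The log2 fold change was 1.04 (SE 0.11, edgeR adjusted p = 0.000182) in pMo against cMo, a rise of 2.06-fold. From intMo to pMo it was 0.67 (SE 0.10, edgeR adjusted p = 0.00852), and without pMo 1 the same difference was 0.66 with an adjusted p of 0.0554. The step from cMo to intMo was 0.37 (SE 0.10, edgeR adjusted p = 0.03), and this call was lost in 10 of 17 other settings (adjusted p up to 0.0988), among them the fit without the libraries numbered 0 and those without cMo 0, cMo 2, pMo 1, pMo 2 or any 1 intMo library.

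Rab8a (chr8:72161200-72183904, plus strand), the close relative of Rab10 in exocytosis, was at 163, 174 and 191 CPM in cMo, 144, 187 and 191 CPM in intMo and 228, 261 and 261 CPM in pMo. All pMo libraries were above the rest, and cMo and intMo overlapped. Its log2 fold change was 0.51 (SE 0.14, edgeR adjusted p = 0.0221) in pMo against cMo, lost without cMo 0, cMo 1, pMo 1 or pMo 2 (adjusted p up to 0.0788). Against intMo it was 0.52 (SE 0.14, edgeR adjusted p = 0.0741). Rab8b (chr9:66843664-66919687, minus strand), the paralog and the most abundant gene of this group per length, was at 131, 193 and 214 CPM in cMo, 156, 220 and 207 CPM in intMo and 184, 259 and 280 CPM in pMo. Library 0 was the lowest each time and the subsets overlapped. With all libraries its log2 of 0.43 in pMo against cMo was not called (SE 0.23, edgeR adjusted p = 0.185); with the library number as a block, or without the libraries numbered 0, it was 0.43 and 0.41 with adjusted p of 0.0234 and 0.0219.

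The numbers of the intMo and pMo libraries pair by the check given with the processing, which sets library 0 apart but does not tell numbers 1 and 2 apart. With the block, 4 Rab genes were called between pMo and intMo in place of 1, against 5.95% of all genes. Rab10 (log2 0.67), Rab33a (1.71) and Rab8a (0.53) were higher in pMo, and Rab39 (-1.80) was lower, with edgeR adjusted p of 0.0157, 0.0416, 0.0388 and 0.0268.

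**Figure D4:**
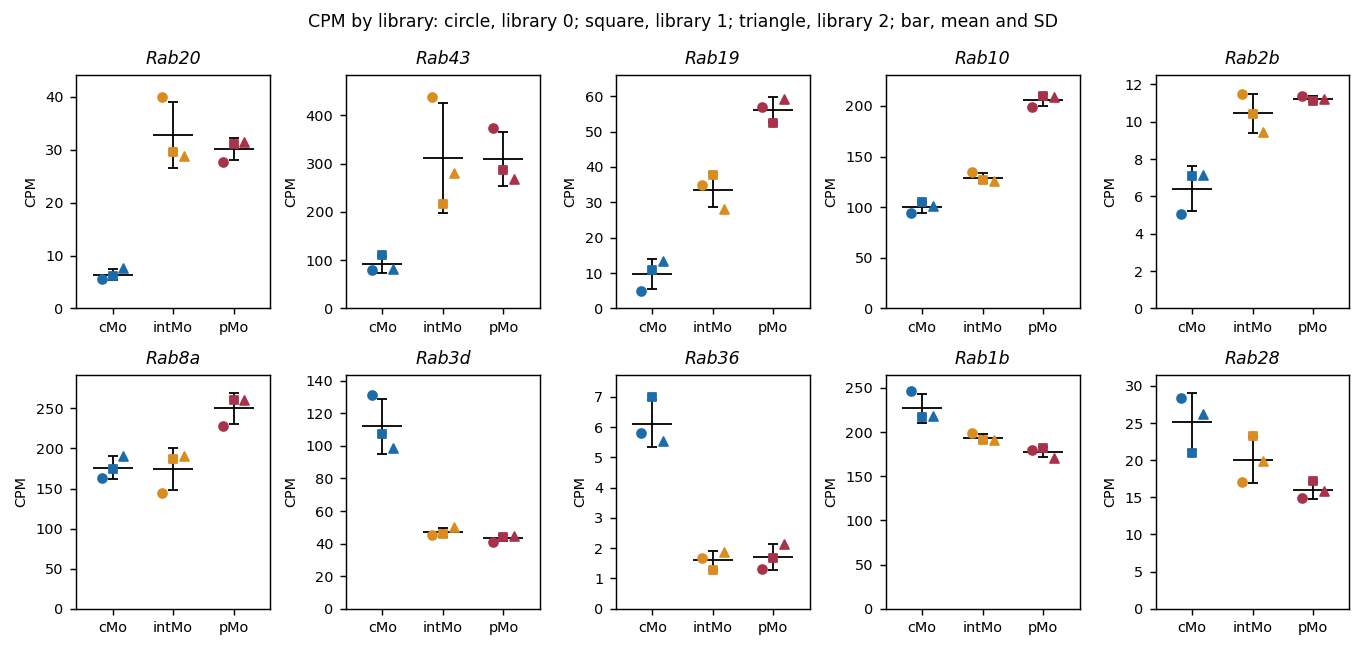
CPM (y axis, from 0) of 10 called Rab genes in each library of cMo (blue), intMo (orange) and pMo (red); circles are libraries 0, squares libraries 1 and triangles libraries 2, and the bars give the mean and SD of 3 libraries. Rab10 and Rab19 rise in steps from cMo to pMo, Rab20, Rab43 and Rab2b overlap between intMo and pMo, Rab8a is apart in pMo, and Rab3d and Rab36 are high in cMo.

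Rab3d (chr9:21907491-21918192, minus strand), found on secretory granules, fell. Its level was 131, 107 and 98.5 CPM in cMo, 45.3, 45.7 and 50.3 CPM in intMo and 41.1, 44.2 and 44.9 CPM in pMo. Every cMo library was well above every other library. The log2 fold change was -1.25 (SE 0.13, edgeR adjusted p = 0.000394) in intMo and -1.37 (SE 0.13, edgeR adjusted p = 0.000149) in pMo, that is 0.42 and 0.387 times the cMo level. Granulocyte and progenitor genes also differ between these libraries, with 5 of 12 called lower in intMo and in pMo. The libraries intMo 1 and intMo 2, whose granulocyte sums of 4054 and 3771 CPM lie above the 2266 and 2548 CPM of cMo 1 and cMo 2, had 45.7 and 50.3 CPM of Rab3d against 107 and 98.5 CPM. Elane, Mpo, Prtn3 and Ctsg, the early granule enzymes of the list, were higher in the cMo libraries than in every intMo and pMo library; the part of granulocyte and progenitor RNA in the Rab3d level was not tested. Without the libraries numbered 0 Rab3d had log2 fold changes of -1.09 and -1.20, both called.

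Rab27a and Rab44 are granule-linked genes whose level moved with library 0. Rab27a, which docks granules and lysosome-related organelles at the cell surface and is named here after its values were seen, was at 155, 111 and 130 CPM in cMo, 36.5, 97.4 and 94.7 CPM in intMo and 47.2, 81.8 and 75.7 CPM in pMo. The cMo libraries were above all others, and intMo 0 and pMo 0 were the lowest. Its log2 fold change in pMo against cMo was -0.95 (SE 0.36, edgeR adjusted p = 0.0696; DESeq2 adjusted p = 0.0266), and -0.60 (SE 0.11, edgeR adjusted p = 0.00392) without the libraries numbered 0. Rab44 (chr17:29114145-29148980, plus strand), a large Rab with added domains, had 247, 136 and 129 CPM in cMo, 58, 120 and 119 CPM in intMo and 52.7, 102 and 93.3 CPM in pMo. Again cMo 0 was the highest and intMo 0 and pMo 0 the lowest, as in the granulocyte sums. Its log2 fold change in pMo against cMo was -1.05 (SE 0.37, edgeR adjusted p = 0.057; DESeq2 adjusted p = 0.0166), and -0.44 (SE 0.11, edgeR adjusted p = 0.0137) without the libraries numbered 0. The part of granulocyte RNA in these levels was not tested, nor was that of mast cells and basophils. The 6 genes of the latter summed to 14.4, 2.85 and 5.29 CPM in cMo, 0.375, 2.8 and 3.22 CPM in intMo and 0.657, 1.3 and 0.35 CPM in pMo, so cMo 0 was the highest and intMo 0 the lowest intMo library. Mcpt8, a basophil protease, made up most of the sum in cMo, at 12.8, 2.64 and 4.18 CPM. It was called lower in intMo (log2 -2.93, SE 0.87, edgeR adjusted p = 0.0379) and in pMo (log2 -4.99, SE 1.01, edgeR adjusted p = 0.00561). Mcpt4 and Cpa3 went the other way in intMo, from means of 0 and 0.12 CPM in cMo to 0.651 and 0.367 CPM. Of these, Mcpt4 was not called and Cpa3 was not tested.

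**Figure D5:**
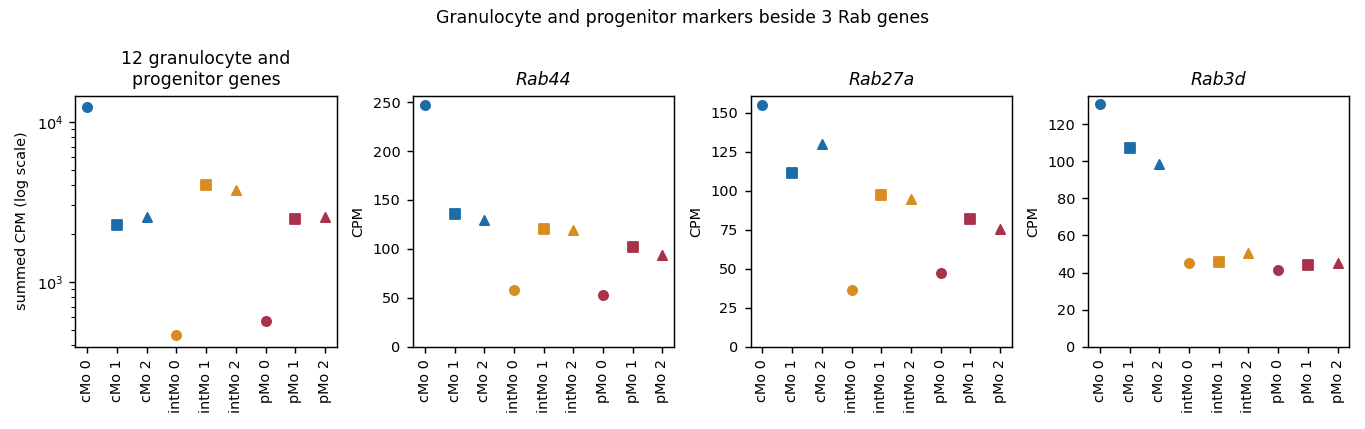
Left, the summed CPM (log scale) of 12 granulocyte and progenitor genes in each of the 9 libraries; then the CPM (from 0) of Rab44, Rab27a and Rab3d in the same libraries, blue for cMo, orange for intMo and red for pMo, with circles for libraries 0. Rab44 and Rab27a are highest in cMo 0 and lowest in intMo 0 and pMo 0, as the marker sum is, while Rab3d is at 41.1 to 50.3 CPM in all 6 intMo and pMo libraries.

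Rab27b, the rarer paralog of Rab27a, which acts in secretion of vesicles and granules, summed to 22 estimated counts in cMo, 83 in intMo and 107 in pMo. It was called higher in both, with a log2 of 2.12 (SE 0.51, edgeR adjusted p = 0.0165) and 2.39 (SE 0.51, edgeR adjusted p = 0.00664), at no more than 1.75 CPM in any library. Like Rab30 and Rab33a it is outside the rule for named genes. Rab37, which acts in secretion from immune cells, was at 7.59, 2.21 and 2.45 CPM in cMo and 11.2, 10.4 and 8.85 CPM in intMo (log2 1.31, SE 0.50, edgeR adjusted p = 0.0869). It was called by DESeq2 (log2 1.30, adjusted p = 0.0339), with the library number as a block (log2 1.55, edgeR adjusted p = 0.0129) and without the libraries numbered 0 (log2 2.05, edgeR adjusted p = 0.000127). Rab13, at 1.51 to 3.78 CPM in cMo and 1.11 to 1.89 CPM in pMo, had a log2 of -1.04 (SE 0.39, edgeR adjusted p = 0.0652; DESeq2 adjusted p = 0.035). Rab12, Rab3a and Rab3c were not called.

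Among genes with other roles, 4 of 5 were tested, and Rab28 was the 1 called gene (25% in pMo against cMo, against 33.1% of all genes). Rab28 (chr5:41624976-41708157, minus strand), a divergent Rab known from cilia and from shedding of photoreceptor membranes, was at 28.4, 21 and 26.2 CPM in cMo, 17, 23.2 and 19.9 CPM in intMo and 14.9, 17.2 and 15.8 CPM in pMo. The cMo and pMo libraries did not overlap, and intMo overlapped both. Its log2 fold change was -0.66 (SE 0.17, edgeR adjusted p = 0.016) in pMo against cMo; without pMo 0 or pMo 2 the adjusted p was 0.0561 and 0.0557. Rab23, an inhibitor of Hedgehog signalling, and Rab40c, which works with a ubiquitin ligase, were not called.

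The 10 genes that did not pass the filter were Rab15, Rab17, Rab25, Rab26, Rab39b, Rab3b, Rab40b, Rab42, Rab4a and Rab9b, none of which reached 1 CPM in any library. They summed to between 9 (Rab3b) and 48 (Rab25) estimated counts over the 9 libraries. Rab40b had 21 counts over intMo and 2 over cMo, a ratio of 12.2 per scaled count with an exact 95% counting interval from 2.98 to 107, and Rab39b 11 over pMo and 2 over cMo, a ratio of 6.1 (1.33 to 56.6). The other ratios taken, for Rab15, Rab3b, Rab39b and Rab40b, had intervals that include 1. These intervals cover counting error only. Rab40b was at 0.429 and 0.467 CPM in intMo 0 and 1 but at 0.0663 CPM in intMo 2, below the 0.072 CPM of cMo 2. Rab39b was at 0.393 CPM in pMo 2 but at 0.0411 and 0.035 CPM in pMo 0 and 1.

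Of 122 listed partners, the genes that turn Rabs on and off or act with them, 117 were tested. In intMo against cMo 19 were higher and 8 lower (23.1%, against 24.4% of all genes), in pMo against intMo 4 higher and 3 lower (5.98%, against 4.99%), and in pMo against cMo 32 higher and 8 lower (34.2%, against 33.1%). By direction in pMo against cMo, 27.4% of the partners were higher, against 17.2% of all genes, and 6.84% lower, against 15.9%. The median log2 fold change of the 117 was 0.22, 0.06 and 0.29, beside -0.01, -0.02 and 0.03 over all genes. These lists were written with earlier results of these data known.

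Among 35 tested GTPase-activating proteins, 12 were higher and 3 lower in pMo against cMo (42.9%, against 33.1% of all genes). Tbc1d4 (AS160), which acts on Rab10, Rab8a and Rab14, was at 9, 15.3 and 10.2 CPM in cMo, 113, 60.9 and 70.5 CPM in intMo and 32.9, 21.5 and 22.5 CPM in pMo, so that its peak was in intMo. It rose by a log2 of 2.82 (SE 0.31, edgeR adjusted p = 0.000417) in intMo against cMo and had a log2 of -1.67 (SE 0.29, edgeR adjusted p = 0.0133) in pMo against intMo. The summed level of 6 dendritic cell markers was also highest in intMo, at 103, 82.1 and 80.9 CPM, beside 42.1 to 43.3 CPM in cMo and 49, 22.3 and 20.2 CPM in pMo, and 0 of the 6 were at 0 in any library. By edgeR 5 of the 6 were called higher in intMo against cMo and 3 of 6 lower in pMo against intMo, Siglech among both (33.3 to 36.3 CPM in intMo, 3.35 to 4.57 CPM in cMo). Their part in the Tbc1d4 level was not tested. Tbc1d8, a member of the same domain family, was at 54.9 to 76.8 CPM in cMo, 126 to 138 CPM in intMo and 307 to 399 CPM in pMo (log2 2.45 in pMo against cMo, SE 0.16, edgeR adjusted p = 1.93e-05). Tbc1d2 (Armus), which inactivates Rab7, went down, from 27.8, 14.9 and 11.5 CPM in cMo to 3.7, 3.12 and 3.28 CPM in pMo (log2 -2.43, SE 0.36, edgeR adjusted p = 0.00125).

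Among 36 exchange factors, 8 were higher and 2 lower in pMo against cMo (27.8%, against 33.1% of all genes). Rab3il1 (GRAB), which loads GTP onto Rab8 and Rab3, had its peak in intMo, at 287, 148 and 150 CPM, beside 33 to 40.6 CPM in cMo and 61 to 85.4 CPM in pMo. That was a log2 of 2.37 (SE 0.27, edgeR adjusted p = 0.000569) in intMo against cMo and -1.47 (SE 0.26, edgeR adjusted p = 0.0147) in pMo against intMo. The sum of the dendritic cell markers was highest in the same libraries, as were Xcr1, Clec9a and Siglech but not Flt3, Zbtb46 or Ccr7. The part of these markers was not tested. Ric1, a subunit of the exchange factor of Rab6, rose in steps, from 31.3 to 39.6 CPM in cMo through 58.1 to 70 CPM in intMo to 129 to 135 CPM in pMo (log2 1.86 in pMo against cMo, SE 0.13, edgeR adjusted p = 3.29e-05). Rgp1, which forms that complex with Ric1, was at 50.8 to 115 CPM and was not called. Dennd2a, an exchange factor of Rab9, was lower in intMo (log2 -1.32, SE 0.27, edgeR adjusted p = 0.00882) and in pMo (-0.84, SE 0.27, edgeR adjusted p = 0.0387) than in cMo.

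Of 8 genes for the lipid tail and the recycling of Rabs, 2 were called in intMo and 3 in pMo against cMo (25% and 37.5%, against 24.4% and 33.1% of all genes). Gdi2, which extracts GDP-bound Rabs from membranes and was at 599 to 1482 CPM, was higher in intMo (log2 0.89, SE 0.18, edgeR adjusted p = 0.00738). Chml, an escort protein for prenylation, fell from 31.9, 49.4 and 52.9 CPM in cMo to 15.4, 15.4 and 17.4 CPM in pMo (log2 -1.48, SE 0.22, edgeR adjusted p = 0.0012), while its paralog Chm, at 17.5 to 49.8 CPM, was not called.

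The enzymes that phosphorylate and dephosphorylate Rabs were 3, and 2 of them were called higher in pMo against cMo (66.7%, against 17.2% of all genes called higher). Lrrk1, a kinase of Rab7, was at 86.2, 106 and 72.2 CPM in cMo, 234, 139 and 175 CPM in intMo and 257, 174 and 168 CPM in pMo (log2 1.18 in pMo, SE 0.24, edgeR adjusted p = 0.00599). Ppm1h, the phosphatase of Rab8 and Rab10, was at 74.2, 99 and 74.4 CPM in cMo and 145, 144 and 143 CPM in pMo (log2 0.80, SE 0.14, edgeR adjusted p = 0.00297). Lrrk2, a kinase of Rab8 and Rab10, was at 75, 80.1 and 57.9 CPM in cMo, 23.3, 52.9 and 54.5 CPM in intMo and 73.1, 97.2 and 105 CPM in pMo. Ppm1h and Lrrk2 are outside the rule for named partners.

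Of 35 tested effectors, 9 were higher and 1 lower in pMo against cMo (28.6%, against 33.1% of all genes). Rilpl2, which binds phosphorylated Rab8 and Rab10, was at 51.2 to 63.8 CPM in cMo, 103 to 140 CPM in intMo and 105 to 150 CPM in pMo (log2 1.20 in pMo against cMo, SE 0.18, edgeR adjusted p = 0.00122). Rab11fip1, an effector of Rab11, was higher in pMo than in intMo (log2 0.85, SE 0.16, edgeR adjusted p = 0.0193), with 80.7 to 83.9 CPM against 40.8 to 56 CPM. Appl2, an effector of Rab5, was higher in intMo than in cMo (log2 1.04, SE 0.24, edgeR adjusted p = 0.0148). Osbpl1a (ORP1L), a sterol sensor bound to Rab7, fell in pMo, to 4.97 to 7.72 CPM from 10.1 to 13.8 CPM in intMo (log2 -1.03, SE 0.24, edgeR adjusted p = 0.042). For all of these partners the stromal genes differ between cMo and the other two subsets in the same libraries. The sum of the dendritic cell markers differs between intMo and both other subsets, though Flt3, Zbtb46 and Ccr7 do not peak in intMo. The part of the stromal genes and of these markers was not tested.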

How the data were processed

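The authors deposited a table of estimated counts per gene, 1 column for each of 9 libraries. Per the submitters' processing notes, kallisto 0.46.1 and mm10 were used; the labels' protocols name RNAzol for the extraction and NEBNext Ultra II (stranded, mRNA) for library preparation. No source used here gives the annotation, how transcripts were summed to genes, or the strand setting. In each library 19.4% to 22% of values were fractional (tolerance 0.001), and all were rounded for testing. Of 46517 gene IDs, 46005 matched GENCODE M21 (GRCm38), which gave symbols, biotypes, exon lengths and coordinates, and 512 did not.

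edgeR's filterByExpr, by subset, left 14059 genes, which were scaled by TMM and fitted over all 9 libraries with subset as the term (edgeR 4.0.16, quasi-likelihood F test, robust, R 4.3.3). A call is a Benjamini-Hochberg adjusted p under 0.05, with adjustment over those 14059 genes. The SE of a log2 fold change was taken as its size divided by the square root of F. CPM is the count scaled to the TMM-adjusted library size, and CPM per kb divides it by the merged exon length. The steps were tested on simulated data. DESeq2 1.42.0, other scalings and filters, only the 2 subsets compared, the library number as a block, libraries 1 and 2 alone, and each library left out were the alternatives. Shared stretches of 31 bases were counted between annotated transcripts. Counting intervals cover counting error only, since the reads carry no molecular identifiers.

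The members, roles, partner and marker lists were chosen with earlier results of these data known. Named Rab genes are, in each pair, the 6 called genes with the largest rise and the 6 with the largest fall at a mean of at least 1 CPM, and the gene with the highest CPM per kb in each of 5 role groups; named partners are the called gene with the largest rise and the largest fall per class and pair at a mean of at least 5 CPM. One gene that the rule for partners takes is not reported here. Genes outside the rule are named only with their values, as not called or as seen afterwards.

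Whether library numbers pair the subsets was checked by the correlation of deviations from the subset means over all genes tested. For intMo and pMo it was 0.588, 0.3 and 0.274 for numbers 0, 1 and 2, all above 0.1, so by this rule the numbers pair these 2 subsets, from the data and not from the labels. The crossed values were 0.403 for intMo 1 and pMo 2 and 0.279 for intMo 2 and pMo 1, so the check sets library 0 apart and does not tell numbers 1 and 2 apart. For cMo and intMo it was 0.066, -0.143 and -0.069, and for cMo and pMo 0.179, -0.016 and 0.23, so they do not pair there. Blocked values are printed for genes and counts where the block added a call. The block was fitted over all 9 libraries, cMo included. Blocked values against cMo therefore rest on numbers that this check did not pair.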

Additional observations from a re-analysis of the deposited data

How the results depend on the processing

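Each count of called Rab genes was recomputed under up to 17 alternatives. For intMo against cMo, pMo against cMo and any subset, every count stayed within 1.5 times the value reported. Between pMo and intMo, where 1 gene was called, DESeq2 gave 4 (6.78%, against 9.17% of all genes). The fit to only the 2 subsets compared gave 2 (4.08%, against 6.71%). The fit to libraries 1 and 2 alone gave 7 (14.3%, against 17.1%). Leaving out 1 library at a time gave 0 without pMo 1 (against 1.54%) to 3 without cMo 0 (6%, against 7.73%). Without pMo 0 there were 2 (4%, against 3.1%). Rab10 was among the called genes in all of these except the fit without pMo 1. That fit to libraries 1 and 2 has 2 libraries a subset and called 17.1% of all genes, so its count is not independent of the one reported.

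With the library number as a block there were 4 calls between intMo and pMo, whose numbers pair by the check described. With cMo, whose numbers do not pair, there were 13 in intMo against cMo, 15 in pMo against cMo and 14 for any subset. In the last of these, 11 of the 12 reported genes remained.

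Rab19, Rab20, Rab36, Rab3d and Rab43 kept their calls against cMo under all 17 alternatives in both pairs. Rab10 and Rab2b did so in pMo against cMo, Rab27b in both pairs, and Rab30 in the 16 that tested it. The Rab44 fall in pMo, which is not called with all libraries, was called in 4 alternatives. The differences of Rab5c between pMo and intMo changed sign to 0.03 with libraries 1 and 2 alone and to 0.04 without intMo 0 (-0.15 to 0.04 over the fits without 1 library), and that of Rab8b between intMo and cMo to -0.07 without cMo 0 (-0.07 to 0.26). None of these was called. With the longest transcript as the length, the levels of Rab7, Rab5c and Rab1b were 174, 150 and 104 CPM per kb, in the same order. Rab4b (61.8 CPM per kb) and Rab43 (51.6) then stood above Rab2a (48.9) and Rab8b (43.3), which left the 8 highest genes. Rab8a (44 CPM per kb) passed Rab8b, and Rab14 went from 15.9 to 43.1 CPM per kb. The causes were not tested. Other scalings moved the median change over all genes by -0.0556 to 0.0538 on the log2 scale. At this depth 10 Rab genes, all under 1 CPM in every library, were not tested.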
